A study of Mus musculus with 2 samples.

Results

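The genes described here are 33 genes of the actin cytoskeleton and of the contractile apparatus, many of them known targets of serum response factor (SRF). They were listed by name and matched to the gene names of the array's non-control spots, and 32 of them had a probe well above background, among 19220 such genes in all. The members were chosen by their role and by their log2 ratios of FGF23 over unstimulated cells in earlier results of the same arrays, where several lay below 0, so these ratios are given as a description. The test over all genes is quoted as background only, and its outcome for the members supports nothing. Following the naming of the list, 8 genes were taken as contractile and smooth-muscle-type (Acta2, Actg2, Tagln, Cnn1, Myl9, Tpm1, Tpm2 and Cald1) and 25 as general actin-binding genes, with the intermediate filament gene Vim counted among these 25.

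The study asked what the bone-derived hormone FGF23 does in kidney tubule cells apart from its part in calcium and phosphate handling. It used mIMCD3, a mouse epithelial cell line derived from the inner medullary collecting duct. Cells given 10 ng/mL FGF23 for 4 h were compared with unstimulated cells, and both were grown in medium with 10% serum, per the labels. RNA of both conditions was hybridised together on 2 Agilent arrays with the dyes exchanged: FGF23 RNA carried Cy3 on array 1 and Cy5 on array 2. Both conditions come from 1 cell line, and the labels do not say whether the arrays held separate cultures, so the spread between them may be technical only.

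Actin filaments give the cell its shape and its tension. SRF is a transcription factor that, with its actin-sensing partners of the MRTF family, switches on genes for actin, for actin-binding proteins and for the contractile apparatus when the cell's pool of free actin monomer falls. It binds a short A- and T-rich element named the CArG box. Several contractile genes, with smooth muscle alpha-actin as the best known, are used in the kidney as signs of epithelial cells or fibroblasts that take on a myofibroblast-like state.

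The promoters of the members are shown first because the CArG box is the element that SRF binds. No promoter sequence was read to draw up the list, but its genes were gathered partly as known SRF targets, so the shares below are not independent of that choice. RefSeq promoters on GRCm38.p6, from 250 bases before to 50 bases after the start of transcription, were matched by symbol for 30 of the 33 members; Tagln, Actg2 and Actb had no entry. A full CArG box, a pattern whose search covers both strands at once, lay in the window of 8 of these 30 members (26.7%), against 488 of 27025 genes in the whole promoter table (1.81%). It was found in 1 of 6 contractile members (16.7%) and in 7 of 24 general members (29.2%). The TATA-box letters TATAAA, searched on both strands, lay in 6 of the 30 (20%) and in 15.7% of the whole promoter table. Of the 10709 genes above background that were matched to a promoter, 9.52% held these letters and 1.69% a full CArG box. A match is a description of the letters, and no match says only that they are not in this window.

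The 30-base windows around the boxes follow on the strand of the gene, 5′ to 3′, with the box in capitals. Their boxes begin between 31 and 227 bases before the start. The starts of Fhl2 with a box are listed by rising position on the chromosome, and the gene lies on the minus strand.
Myl9: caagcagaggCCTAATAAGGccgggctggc
Actg1: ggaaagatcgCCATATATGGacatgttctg
Cnn2: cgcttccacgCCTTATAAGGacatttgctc
Filip1l: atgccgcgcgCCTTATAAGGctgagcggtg
Vcl: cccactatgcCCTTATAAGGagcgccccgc
Myl6: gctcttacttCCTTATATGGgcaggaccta
Fhl1: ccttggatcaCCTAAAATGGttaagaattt
Fhl2, first start: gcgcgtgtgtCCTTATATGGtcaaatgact
Fhl2, second start: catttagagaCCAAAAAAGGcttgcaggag

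Cnn2, Filip1l and Vcl held the same box, CCTTATAAGG, and Myl6 shared CCTTATATGG with one of the starts of Fhl2. Filip1l and Cnn2 carried it 62 and 56 bases before the start and Vcl 227 bases before it. Fhl2 had a box at each of the starts shown above.

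The promoters of Acta2 and Myl9 are shown in full because both genes were lower with FGF23 on both arrays. Acta2, on chr19:34255324-34255623 of GRCm38.p6, minus strand, held no full CArG box. It held 2 that differ by 1 letter, which begin 84 and 34 bases before the start and are in capitals. The Acta2 gene is known for such CArG elements with a changed letter in the A- and T-rich core. Myl9, on chr2:156775214-156775513, plus strand, held a full box, in capitals, 161 bases before the start. Myl9 also holds ccttgtaagg, a box with 1 letter changed that is left in lower case. A box with 1 letter changed lay in 9 of the 30 members (30%), among them 4 of 6 contractile members. It lay in 22.5% of genes in the whole promoter table and in 19.2% of the matched genes above background.
Acta2: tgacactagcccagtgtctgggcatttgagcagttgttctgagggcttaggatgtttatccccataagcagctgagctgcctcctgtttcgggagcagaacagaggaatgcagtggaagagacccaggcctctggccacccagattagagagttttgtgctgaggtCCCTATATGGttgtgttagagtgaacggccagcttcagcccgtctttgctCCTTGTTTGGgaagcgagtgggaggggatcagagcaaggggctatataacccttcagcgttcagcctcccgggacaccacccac
Myl9: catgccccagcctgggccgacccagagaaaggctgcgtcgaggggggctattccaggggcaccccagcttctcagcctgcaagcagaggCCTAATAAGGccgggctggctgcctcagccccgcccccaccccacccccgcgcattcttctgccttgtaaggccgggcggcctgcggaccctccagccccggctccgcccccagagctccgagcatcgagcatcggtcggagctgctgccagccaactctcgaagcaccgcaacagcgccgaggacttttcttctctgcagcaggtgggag

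The arrays had 62976 spots each, and between 47.3% and 54.5% of probes were well above background in each dye and array. Per array, the SD of the log2 ratio over all genes was 0.15 on array 1 and 0.13 on array 2, and the median was -0.012 and 0.015. No spot was saturated. Values below are log2 ratios of FGF23 over unstimulated cells after background correction and loess normalization within each array, with the brightest probe standing for a gene. Intensities are normalised scanner units. Brightness is the mean log2 intensity of a probe over both dyes and arrays. Fewer copies per cell and fewer cells that express a gene cannot be told apart in these RNA samples.

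The labelled epithelial cell type was checked against its markers. Of 12 kidney tubule and collecting duct markers, 11 were above background, among them the epithelial cadherin Cdh1 (brightness 11.2) and the keratins Krt8 and Krt18 (15.7 and 16.6). Aqp3 was not. Of 5 defining smooth muscle markers only Smtn was measured, with a bright probe (brightness 14.6). Myh11, Lmod1, Des and Myocd had probes that did not pass the filter. Of 8 fibroblast markers only Col1a1 was measured, with a dim probe (brightness 7.11), and of 6 striated muscle markers Acta1, also dim (6.68), and Tnnt2 (11.6). The contractile members were thus read in cells in which most defining markers of muscle and fibroblasts were not above background.

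With FGF23, the contractile genes Tagln, Acta2 and Myl9 had the lowest ratios of all 32 members, about 1.26 to 1.36 times lower than in unstimulated cells, and Vim followed among the general members. Of the 32 members, 19 had ratios below 0 in both hybridisations, 13 had opposite signs and 0 lay above 0 in both. Over all 19220 genes, the share with both ratios below 0 was 22.3% and with both above 0 it was 23.9%; since these ratios are what brought the members together, nothing is read from the difference. In limma's moderated test over all genes, 9 genes passed as higher (0.0468%) and 0 as lower (0.0%), at an adjusted p threshold of 0.05. None of the members passed. At an unadjusted p under 0.05, 7 members were lower (1.31% of all genes) and none higher (2.6% of all genes). With an intensity trend and robust prior in limma, 2 members, Tagln and Acta2, were among the 20 genes lower (0.104%), and no member was among the 59 genes higher (0.307%).

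**Figure D1:**
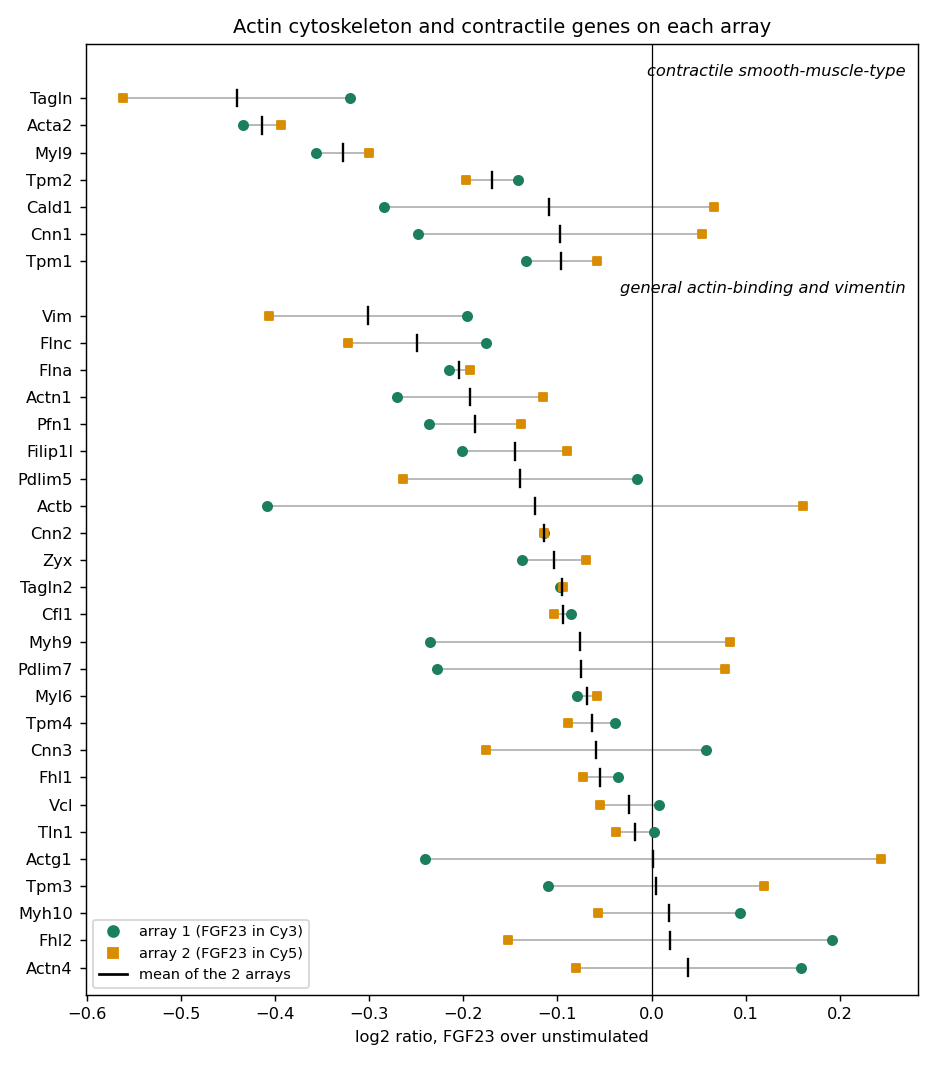
Log2 ratio of FGF23 over unstimulated cells (horizontal axis) for the 32 measured members, with array 1 as circles, array 2 as squares and the mean of both as a tick. Tagln, Acta2 and Myl9 are the lowest members, no member is above 0 on both arrays, and Actb and Actg1 have the widest gaps between arrays.

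Acta2 encodes smooth muscle alpha-actin, the actin isoform of vascular and myofibroblast stress fibres. Its intensity was 549.9 and 592.6 with FGF23 on arrays 1 and 2, against 743 and 779 in unstimulated cells. The log2 ratio was -0.43 and -0.39, a mean of -0.41 ± 0.028 (SD, n = 2 arrays). The unstimulated channel was the brighter on both arrays, whichever dye it carried. The probe lies on chromosome 19 from 34316060 to 34316119 (mm9, per the deposited annotation). Exon and UTR positions of probes were not analysed here.

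The Acta2 probe was printed 10 times on each array, which gives technical repeats. On array 1 the 10 FGF23 readings had a lowest, median and highest intensity of 460, 544 and 604, against 603, 774 and 824 in unstimulated cells. On array 2 they were 502, 604 and 662 with FGF23, against 644, 782 and 883 in unstimulated cells. The ranges of the conditions overlapped on both arrays, whereas within each spot FGF23 was the lower channel in 10 of 10 spots on either array. The spot ratios ran from -0.51 to -0.35 (SD 0.054) on array 1 and from -0.50 to -0.34 (SD 0.044) on array 2. Spots of an array share the same labelled RNA, so this spread is that of the printing and scanning and not of the cells.

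**Figure D2:**
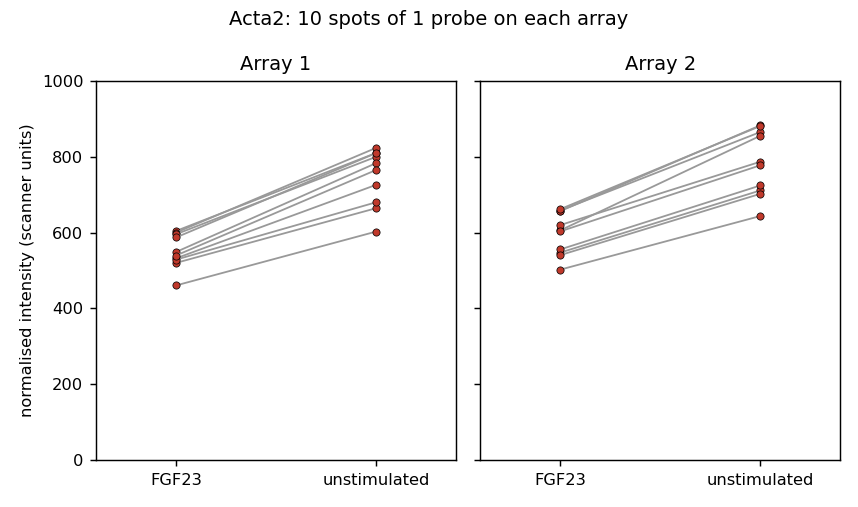
Normalised intensity of each of the 10 Acta2 spots (vertical axis, scanner units) with FGF23 at the left and in unstimulated cells at the right, lines joining the channels of a spot, 1 panel per array. All 10 lines run upwards to the unstimulated channel on both arrays.

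Tagln encodes transgelin, also known as SM22 alpha, an actin-binding protein used as an early marker of smooth muscle. Its intensity was 1390 and 1268 with FGF23, against 1736 and 1871 in unstimulated cells, on arrays 1 and 2. The log2 ratio was -0.32 and -0.56, a mean of -0.44 ± 0.17 (SD, n = 2 arrays). This mean was the lowest of the members, though the arrays differed more for Tagln than for Acta2. Its probe lies on chromosome 9 from 45738097 to 45738156 (mm9).

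Myl9 encodes the regulatory light chain of smooth muscle and nonmuscle myosin II. Its intensity was 206 and 221 with FGF23, against 264 and 272 in unstimulated cells. The log2 ratio was -0.36 and -0.30, a mean of -0.33 ± 0.040 (SD, n = 2 arrays). FGF23 was again the lower channel in both dyes, at a dimmer probe (brightness 7.90) than those of Acta2 (9.36) and Tagln (10.6). Its probe lies on chromosome 2 from 156607301 to 156607360 (mm9). Acta2, Tagln and Myl9 were the 3 members at least 1.2-fold lower on both arrays, as were 28 of all genes (0.146%). No member was among the 80 genes (0.416%) that were higher by that fold on both.

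The tropomyosins wrap around actin filaments and set which myosins and other proteins reach them. Tpm2, the beta isoform of muscle, had 254 and 239 with FGF23, against 281 and 274 in unstimulated cells, a log2 ratio of -0.14 and -0.20 (mean -0.17 ± 0.040, SD, n = 2 arrays). Its second, dimmer probe (brightness 6.52) had a mean of 0.079, so the probes disagreed in sign. Tpm1, which has many splice forms in muscle and in other cells, had 3890 and 4080 with FGF23, against 4268 and 4248 in unstimulated cells, a log2 ratio of -0.13 and -0.058 (mean -0.096 ± 0.054, SD). The 5 probes of Tpm1 ran from -0.096 to 0.063, and its ratio rests on which of them is taken.

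Caldesmon and calponin restrain the actin-myosin cycle in smooth muscle. Cald1 had 2363 and 2695 with FGF23, against 2879 and 2572 in unstimulated cells, a log2 ratio of -0.28 and 0.067 (mean -0.11 ± 0.25, SD, n = 2 arrays). Cnn1, the basic calponin of smooth muscle, had 88.9 and 101 with FGF23, against 106 and 96.9 in unstimulated cells, a log2 ratio of -0.25 and 0.054 (mean -0.097 ± 0.21, SD). Both had opposite signs on the arrays, and Cnn1 was near background, being well above it on 1 of 2 arrays with FGF23 and on 2 of 2 in unstimulated cells. Actg2, the enteric smooth muscle actin, was not well above background in any channel and has no ratio here.

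Of the 25 general members, 14 had ratios below 0 in both hybridisations, 11 had opposite signs and 0 lay above 0 in both. Vim, the intermediate filament protein of mesenchymal and many cultured cells, had 8628 and 8784 with FGF23, against 9883 and 11646 in unstimulated cells. Its log2 ratio was -0.20 and -0.41, a mean of -0.30 ± 0.15 (SD, n = 2 arrays). The probe lies on chromosome 2 from 13504232 to 13504291 (mm9). Vim was the lowest of the general members and 1.23 times lower in FGF23 cells.

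The filamins crosslink actin filaments into networks and tie them to the membrane. Flnc, the filamin of muscle, had 5078 and 4972 with FGF23, against 5735 and 6220 in unstimulated cells, a log2 ratio of -0.18 and -0.32 (mean -0.25 ± 0.10, SD, n = 2 arrays). Flna, the filamin of most cells, had 22864 and 23086 with FGF23, against 26544 and 26392 in unstimulated cells, a log2 ratio of -0.22 and -0.19 (mean -0.20 ± 0.016, SD). Both were lower with FGF23 in either dye. Actn1, an alpha-actinin that bundles filaments at stress fibres and adhesions, had -0.27 and -0.11 (mean -0.19 ± 0.11, SD), whereas its relative Actn4 had 0.16 and -0.081 (mean 0.039 ± 0.17, SD). The intensity of Actn1 was 1717 and 1901 with FGF23, against 2071 and 2059 in unstimulated cells. Actn1 was thus below 0 on both arrays and Actn4 had opposite signs, and the difference between them was not tested.

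Genes of filament turnover had small ratios. Pfn1, the profilin that loads monomers onto growing filaments, had 7289 and 7988 with FGF23, against 8586 and 8791 in unstimulated cells, a log2 ratio of -0.24 and -0.14 (mean -0.19 ± 0.069, SD, n = 2 arrays). Cfl1, the cofilin that severs filaments, had -0.086 and -0.10 (mean -0.095 ± 0.012, SD), and its 3 probes, from -0.23 to -0.095, were below 0 on both arrays. Tagln2, the transgelin of non-muscle cells, had -0.097 and -0.094 (mean -0.095 ± 0.0024, SD) at its brightest probe and -0.22 at the other. Cnn2, a calponin of non-muscle cells, had -0.115 and -0.114 (mean -0.11 ± 0.00057, SD). These genes were below 0 in either dye by small amounts: the means of Cfl1, Tagln2 and Cnn2 are less than the 0.15 and 0.13 SD of all genes on an array.

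Adhesion and LIM-domain members varied among themselves. Filip1l, a filamin-interacting protein, had -0.20 and -0.090 (mean -0.15 ± 0.079, SD, n = 2 arrays) and an intensity of 1725 and 1900 with FGF23, against 1983 and 2022 in unstimulated cells. Zyx, the focal adhesion protein zyxin, had -0.14 and -0.070 (mean -0.10 ± 0.048, SD). Vcl and Tln1, vinculin and talin, which link integrins to actin, had means of -0.024 and -0.017. The core integrin linkers were thus close to 0. Pdlim5 and Pdlim7, scaffolds of the actinin-bound cytoskeleton, had means of -0.14 and -0.075, the second with opposite signs on the arrays. Pdlim5 had -0.016 and -0.26 at its brightest probe, and its other 2 probes had opposite signs on the arrays. Fhl1, a LIM-only protein of muscle, had -0.036 and -0.073 at a dim probe (brightness 6.66). Its relative Fhl2 had 0.19 and -0.15, of opposite signs.

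The cytoplasmic actins, Actb and Actg1, gave the brightest probes of the list, and their signs followed the dye. Actb had 148668 and 189814 with FGF23, against 197411 and 169784 in unstimulated cells, a log2 ratio of -0.41 and 0.16 (mean -0.12 ± 0.40, SD, n = 2 arrays). Actg1 had 140660 and 167666 with FGF23, against 166232 and 141624 in unstimulated cells, a log2 ratio of -0.24 and 0.24 (mean 0.0013 ± 0.34, SD). In each gene the Cy5 channel was the brighter on both arrays, so FGF23 was lower where it carried Cy3 and higher where it carried Cy5. The mean of Actg1 is close to 0 and that of Actb is -0.12, each with a wide SD, and no direction is given for either actin.

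The probes named Actg1 are shown next because they disagree and because actin genes have near-identical copies. Of 5 probes, 3 had ratios below 0 on both arrays, and the means ran from -0.12 to 0.047. A pair of probes annotated to overlapping positions of chromosome 11, 120208361 to 120208420 and 120208371 to 120208430 (mm9, minus strand), overlap by 50 bases in their letters. Counted from 1 at the 5′ end of the first, they differ at A9G, G23A, G25T and C40T, which are in capitals below. The first had ratios of -0.15 and -0.042 at brightness 13.7 and the second -0.069 and -0.12 at brightness 13.2. Which actin copies each probe matches was not analysed here, so the Actg1 values are uncertain.
Actg1 probe, first: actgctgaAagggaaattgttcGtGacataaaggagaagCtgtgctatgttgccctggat
Actg1 probe, second: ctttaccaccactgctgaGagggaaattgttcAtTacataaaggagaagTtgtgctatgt

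The remaining general members are the other myosin, tropomyosin and calponin genes. Myh9, the heavy chain of nonmuscle myosin IIA, had -0.24 and 0.084, and Myh10, that of myosin IIB, had 0.094 and -0.057. Myl6, the essential light chain of these myosins, had -0.079 and -0.058 (mean -0.069 ± 0.015, SD, n = 2 arrays). Tpm3 had -0.11 and 0.12, and Tpm4 -0.039 and -0.089. Cnn3 had 0.058 and -0.18 at its brightest probe. Of these 6, at the brightest probe, Myl6 and Tpm4 kept 1 sign on both arrays, below 0, whereas the others did not. The other probe of Myl6 had opposite signs, -0.24 and 0.037.

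Brightness and ratio are given by class, without a test. The contractile members had a median brightness of 9.36, close to that of all genes (9.21), and the general members one of 13.7, a difference of -4.32. Brightness of different probes is not a measure of relative expression, and 15 of 25 general members and 0 of 7 contractile members were among the 1922 brightest genes. On array 1 the median log2 ratio was -0.28 for the contractile and -0.11 for the general members, and on array 2 it was -0.20 and -0.089. Over both arrays the medians were -0.17 and -0.076, a difference of -0.094 (-0.17 on array 1 and -0.11 on array 2). The median over all genes was -0.00068. With 7 measured genes, the contractile median is the value of a single gene. Over both arrays and on array 2 that gene was Tpm2, whose dimmer probe had a mean of 0.079. On array 1 it was Cald1, which had opposite signs on the arrays. With the mean of all kept probes in place of the brightest the difference was -0.023. Neither difference was tested.

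Signs were also counted by brightness. Among the 7 members with brightness of at least 15, all 7 were below 0 on array 1 and 3 on array 2, with medians of -0.11 and 0.084. All 787 genes as bright had medians of -0.043 and 0.051. Among the 25 dimmer members, 16 were below 0 on both arrays, with medians of -0.14 and -0.11. The medians of the brightest members and of all genes as bright thus had opposite signs on the arrays, and the part of the dye in each member's ratio was not tested.

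**Figure D3:**
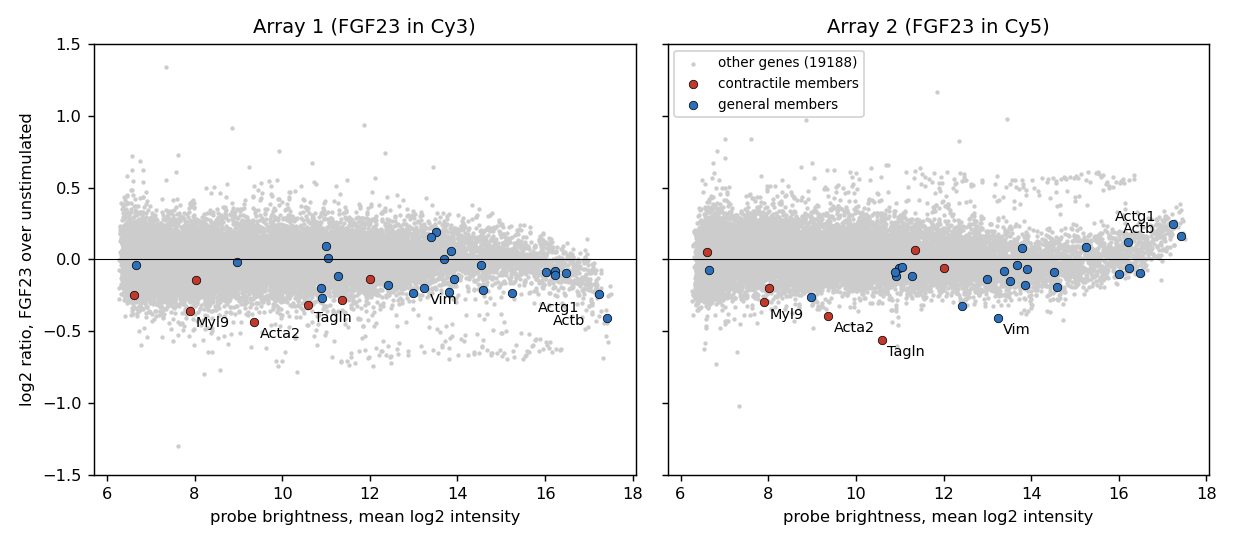
Log2 ratio of FGF23 over unstimulated cells (vertical axis) against brightness, the mean log2 intensity of the probe (horizontal axis), for array 1 at the left and array 2 at the right, with contractile members in red, general members in blue and all other genes in grey. Actb and Actg1 lie below 0 on array 1 and above 0 on array 2, whereas Acta2, Tagln, Myl9 and Vim lie below 0 on both.

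Ratios were set beside the promoter letters as a description, with no test, since the ratios helped to choose the members. The 8 with a box had a median of -0.061 and 5 of 8 were below 0 on both arrays (62.5%), while the 22 matched and measured members without one had a median of -0.096 and 13 of 22 below 0 on both (59.1%). All 181 genes above background with a box, members included, had a median of -0.0072, with 25.4% below 0 on both arrays, near the 22.3% of all genes. Acta2, Tpm1 and Vim were below 0 on both arrays without a full box in this window, and Vcl, with one, was close to 0.

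Other genes of the pathway, from lists that do not overlap with the members, had medians near 0. Of 19 upstream regulators of SRF and of the cytoskeleton, 18 were measured, 0 passed the test in either direction, 1 was below 0 and 1 above 0 on both arrays, and the median was 0.0013. Srf itself had 0.074 and -0.11, and its co-activator Mrtfa had 0.071 and -0.037. Mrtfb, the other co-activator, had 0.17 and 0.25 (mean 0.21 ± 0.054, SD, n = 2 arrays), the only one of the 18 above 0 on both arrays. Arhgef1, a guanine nucleotide exchange factor, had -0.037 and -0.093.

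Of 22 further contractile or SRF-linked genes, 17 were measured, 0 passed in either direction, and 5 were below and 5 above 0 on both arrays, with a median of -0.0074. Pdlim2, a PDZ and LIM scaffold, had 0.26 and 0.23 (mean 0.25 ± 0.018, SD, n = 2 arrays) and Csrp1, a cysteine-rich LIM protein of smooth muscle, had -0.16 and -0.19 (mean -0.17 ± 0.020, SD). The actin-binding proteins Nexn and Synpo had means of 0.16 and 0.16. The named genes of this list thus lay on both sides of 0.

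Of 33 further genes of the actin machinery, 32 were measured, 0 passed in either direction, and 9 were below and 8 above 0 on both arrays, with a median of -0.0025. Tmsb4x, the thymosin that holds actin monomers, had -0.24 and -0.26 (mean -0.25 ± 0.015, SD, n = 2 arrays), and Pfn2, a second profilin, had 0.20 and 0.20 (mean 0.20 ± 0.0055, SD). Arpc4, a subunit of the branching complex, had -0.17 and -0.15. Pfn2 lay above 0 on both arrays and Pfn1 below it.

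**Figure D4:**
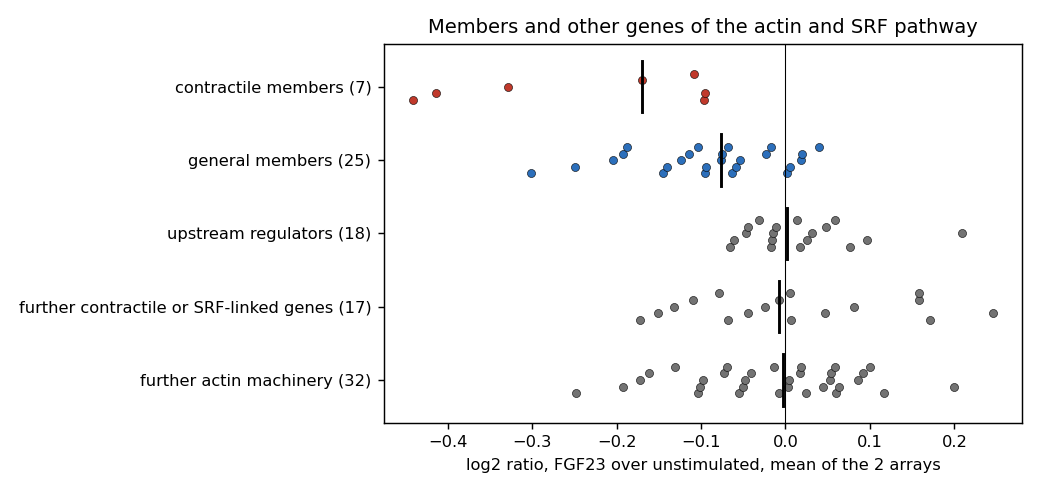
Mean log2 ratio of FGF23 over unstimulated cells over both arrays (horizontal axis) for each measured gene of the member classes and of 3 further lists, with the median of each as a vertical line and the number of genes in brackets. The medians are -0.17 for the contractile and -0.076 for the general members, and 0.0013, -0.0074 and -0.0025 for the other lists, whose genes lie on both sides of 0.

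Epithelial markers had a median ratio of 0.025, with 3 of 11 below and 4 above 0 on both arrays. Epcam and Krt19 had means of 0.15 and 0.090, and Pax8 and Krt7 -0.079 and -0.065. The named epithelial genes lay on both sides of 0. Among the muscle and fibroblast markers that could be measured, Smtn had -0.17 and 0.010, Col1a1 0.012 and -0.17, Acta1 -0.062 and -0.027, and Tnnt2, a troponin of heart muscle, -0.31 and -0.18 (mean -0.25 ± 0.097, SD, n = 2 arrays). Whether a few cells of another type hold part of the contractile signal was not tested.

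The processing changed how far the contractile median lay below 0 and left it below 0, as the mean of both arrays, in each of the settings tried. It was -0.37 with the scanner software's own log ratio and -0.097 with the mean of all kept probes. In both of these settings the median is the value of a single gene, Cnn1, which is near background. With the software's ratio, Acta2 had -0.46 and -0.47, Tagln -0.33 and -0.61, and Myl9 -0.40 and -0.49. In this setting 21 of 32 members were below 0 on both arrays, beside 24.3% of all genes. It reads the same arrays that helped to choose the members, so nothing is read from that count.

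**Figure D5:**
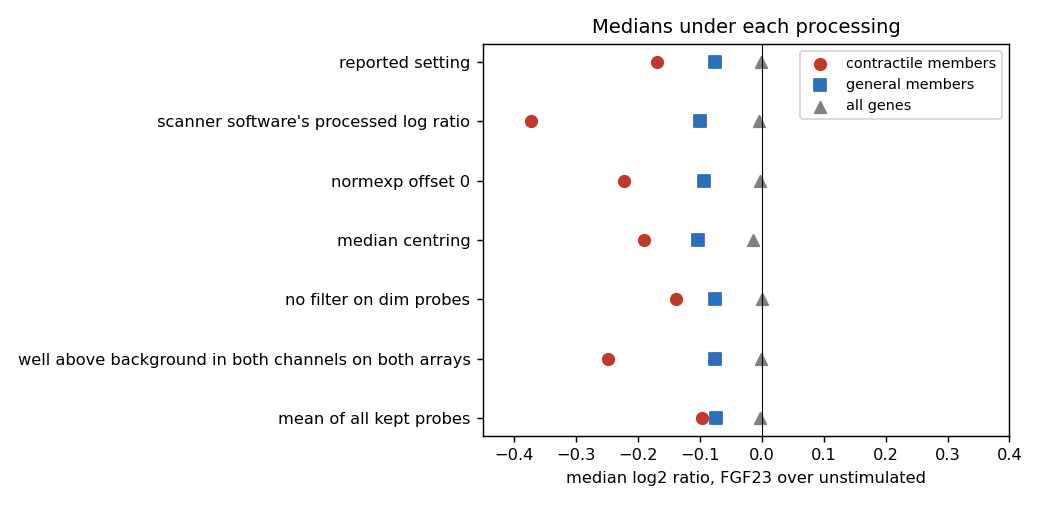
Median log2 ratio of FGF23 over unstimulated cells (horizontal axis) of the contractile members (circles), the general members (squares) and all genes (triangles) under 7 ways of processing the same arrays. The contractile median is the lowest of the 3 in each. It runs from -0.37 with the scanner software's log ratio to -0.097 with the mean of all kept probes. Both of these end values are those of Cnn1, a gene near background. With the mean of probes the contractile median comes within 0.023 of the general median.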

How the data were processed

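RNA of mIMCD3 cells with FGF23 and unstimulated was measured on 2 dye-swapped Agilent arrays. The deposited scanner files give the intensity of each spot and of its background per dye, on a linear scale. Per the file headers, they come from Feature Extraction (version 11.5.1.1), which also wrote a background-corrected, dye-normalized log10 ratio, Cy5 over Cy3. Intensities were background-corrected with normexp (offset 50) and loess-normalized within each array, giving control spots a weight of 0, with limma (version 3.58.1, under R 4.3.3). Ratios were turned to FGF23 over unstimulated from the dyes in the labels, outlier spots left out and spots of a probe averaged. A probe was kept if the scanner flags put it well above background on both arrays for at least 1 condition (26941 of 55681), and the brightest stood for a gene (19220 genes). Of 62 member probes, 58 were kept. Of 28026 probes matched to RefSeq transcripts, 1651 were given an updated symbol, none of them a probe of a member. Spread was moderated over all genes in limma's lmFit and eBayes, with 11.9 prior degrees of freedom, and p-values were adjusted by the Benjamini-Hochberg method, so that p-values rest mostly on that shared spread. The test was checked on simulated data. Precision is limited by having only 2 arrays.

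The members, classes and lists were chosen with earlier results of these data known. All measured contractile members, Actb, Actg1, Vim and the 10 general members with the largest smaller ratio of 1 sign on both arrays were named with values, and up to 4 genes per other list by the same measure, of which 1 is not reported here; other genes named were chosen after their values were seen. Background correction, normalization, the filter on dim probes, the probe rule, the prior and single arrays were tried as alternatives.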

Additional observations from a re-analysis of the deposited data

How the results depend on the processing

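The contractile median, -0.17 over both arrays, was -0.37 with the scanner software's log ratio, -0.25 where only probes well above background in both channels on both arrays were kept, which leaves out Cnn1, and -0.097 with the mean of all kept probes. With the software's ratio and with the mean of probes the contractile median is the value of Cnn1, near background. In the reported setting it is that of Tpm2, whose probes disagreed in sign. The general median, -0.076, was -0.10 with the software's ratio, -0.093 with a normexp offset of 0 and -0.10 with median centring. Their difference, -0.094, was -0.27, -0.17 and -0.023 with the software's ratio, the stricter filter and the mean of probes. With single arrays the contractile median ran from -0.28 to -0.20, the general median from -0.11 to -0.089 and the difference from -0.17 to -0.11. On array 1, 26 of 32 members and 10323 of 19220 genes were below 0, and on array 2, 25 members and 8596 genes. Members above 0 numbered 6 on array 1 and 7 on array 2. At least 1.2-fold lower were 6 members on each, a count not made over all genes.

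Median centring left the genes above background at medians of -0.57 (array 1) and 0.56 (array 2), so all 32 members had opposite signs on the arrays, 0 were below 0 on both and 0 were at least 1.2-fold lower on both. Over both arrays it left the contractile median at -0.19. Genes that passed limma as higher, 9 in the reported setting, numbered 0 with the software's ratio, 5 with an offset of 0, 0 with median centring, 16 with the mean of probes and 59 with an intensity trend and robust prior; genes lower numbered 1 with the mean of probes and 20 with that prior. The members that passed lower with that prior were Tagln and Acta2, and in the other settings no member passed. Of 191 values of single members under these alternatives, 24 moved by more than the spread between arrays and 6 changed sign. The sign changes were those of Actg1, Tpm3 and Fhl2, none of which passed a test. The alternative filters on dim probes left each member's probe and ratio as they were, so the values under those filters could not move. On single arrays 13 of 64 values had the opposite sign. Cnn1, near background, had -0.37 with the software's ratio, and Tpm2 and Tpm1 had -0.045 and -0.021 over their averaged probes. The test was not run on 1 array, which has no residual degree of freedom. Both arrays share a slide and a scan time, so the slide was not fitted as a block. Each ratio pairs both conditions within an array, so the reported test is itself paired.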

Other observations

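Counted by probe, 31 of the 58 kept member probes (53.4%) had ratios below 0 in both hybridisations and 0 had ratios above 0 in both. Over all 26941 kept probes these shares were 23.5% and 23.4%. The probes belong to genes gathered partly for ratios below 0, so nothing is read from the count. In 16 members more than 1 probe was kept. The widest gap between probes of a gene was that of Tpm2, 0.25 on the log2 scale, followed by those of Actg1 (0.16) and Tpm1 (0.16).

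Both kept probes of Cald1 had opposite signs on the arrays, with means of -0.11 and -0.080. The 3 probes of Cnn3 ran from -0.12 to -0.0019, and 1 of them was below 0 on both arrays.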
